A study of Mus musculus with 6 samples.

Results

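Ndufa4, Ndufa5, Ndufb6, Ndufaf6, Stoml2, Mrpl50, Chchd7, Decr1, Coq3 and Pdp1 are nuclear genes whose proteins work in mitochondria. These 10 genes, of 53546 gene features in the deposited count files, were taken by name, and all 10 were used because their exons in the files match those of that gene in the mouse build GRCm38 (GENCODE M21). That holds for only 1755 features (3.28%), here called name-stable, so elsewhere in these files a name can carry the counts of another gene. RNA sequencing compared 3 libraries labelled spinal cord injury (injury 1, 2 and 3) with 3 labelled control (control 1, 2 and 3), all of the mouse strain C57BL/6. No transgene, further allele or drug is named for either group. The labels give the tissue as both spinal cord and intervertebral disc, while the series text names retina and an age of 21 days, and no time after injury is given. Whether each library is a separate animal is not stated, so the spread behind each p-value may be a technical one.

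Mitochondria make most of a cell's ATP. The respiratory chain in their inner membrane passes electrons from NADH through complex I, coenzyme Q, complex III and cytochrome c to complex IV, and the proton gradient this builds drives ATP synthase. Only a few chain subunits are encoded by mitochondrial DNA. The rest, like the proteins of the mitochondrial ribosome, assembly factors and matrix enzymes, are encoded in the nucleus and imported, so that their transcripts are made by the same machinery as other messenger RNAs. Neurons of the spinal cord depend heavily on this oxidative supply. All 37 features of the mitochondrial genome had 0 counts in all 6 libraries, so the chain was seen here only through nuclear genes.

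The 3 controls were not alike, and each result below is given by library for that reason. Total counts were 2905828, 2847578 and 2385703 in injury 1, 2 and 3, and 3896310, 3921627 and 2615213 in control 1, 2 and 3. A single feature that lies on exons of Malat1 held 1.11% to 1.56% of the counts in the injury libraries, against 21.8% in control 1, 17.2% in control 2 and 2.56% in control 3. Summed over 8 neural markers, the level was 6061, 6294 and 5963 CPM (counts over the library total, times 1000000) in injury 1, 2 and 3, against 269, 101 and 5707 CPM in control 1, 2 and 3, and 2 of the 8 were at 0 in control 1 and 2 in control 2. The sum of 6 markers of nephron and other epithelium was 7.57, 7.73 and 5.03 CPM in injury 1, 2 and 3, against 14159 CPM in control 1, 3064 CPM in control 2 and 9.94 CPM in control 3. Of the 4 leukocyte markers the sum was 57.0 to 120 CPM in the injury libraries, against 207 CPM in control 1, 427 CPM in control 2 and 57.4 CPM in control 3. Not every marker followed its sum. Calb1 made up most of the neural sums of controls 1 and 2, at 249 and 78.5 CPM, against 216 to 252 CPM in the injury libraries. Cdh17, of the epithelial list, was at most 2.55 CPM in any library. Pax5, of the leukocyte list, had 1.28 and 3.31 CPM in control 1 and 2, against 5.27 to 7.96 CPM in the injury libraries. Controls 1 and 2 thus went against the labelled spinal cord by these marker sums, though Calb1 in control 1 did not. The disc markers Acan, Col2a1, Col9a1 and Comp could not be read by name. The 10 genes are therefore compared with all 3 controls, without control 3, and against each control alone. The part of these marker differences in the results was not tested. In bulk RNA, fewer cells of a type and less RNA per cell cannot be told apart.

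Together the 10 genes took 0.216%, 0.239% and 0.252% of the counts in injury 1, 2 and 3, against 0.0904%, 0.0585% and 0.200% in control 1, 2 and 3. The 95% Wilson intervals, which cover counting error only, do not overlap between control 1 (0.0874% to 0.0934%), control 2 (0.0562% to 0.0610%) and any other library, and control 3 (0.195% to 0.206%) lay below injury 1 (0.211% to 0.222%). The share in controls 1 and 2 was thus under that in every injury library, with control 3 far nearer to the injury libraries than to the other controls. Of the 10, 8 genes lie on chromosome 4 and 2 on chromosome 6.

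**Figure D1:**
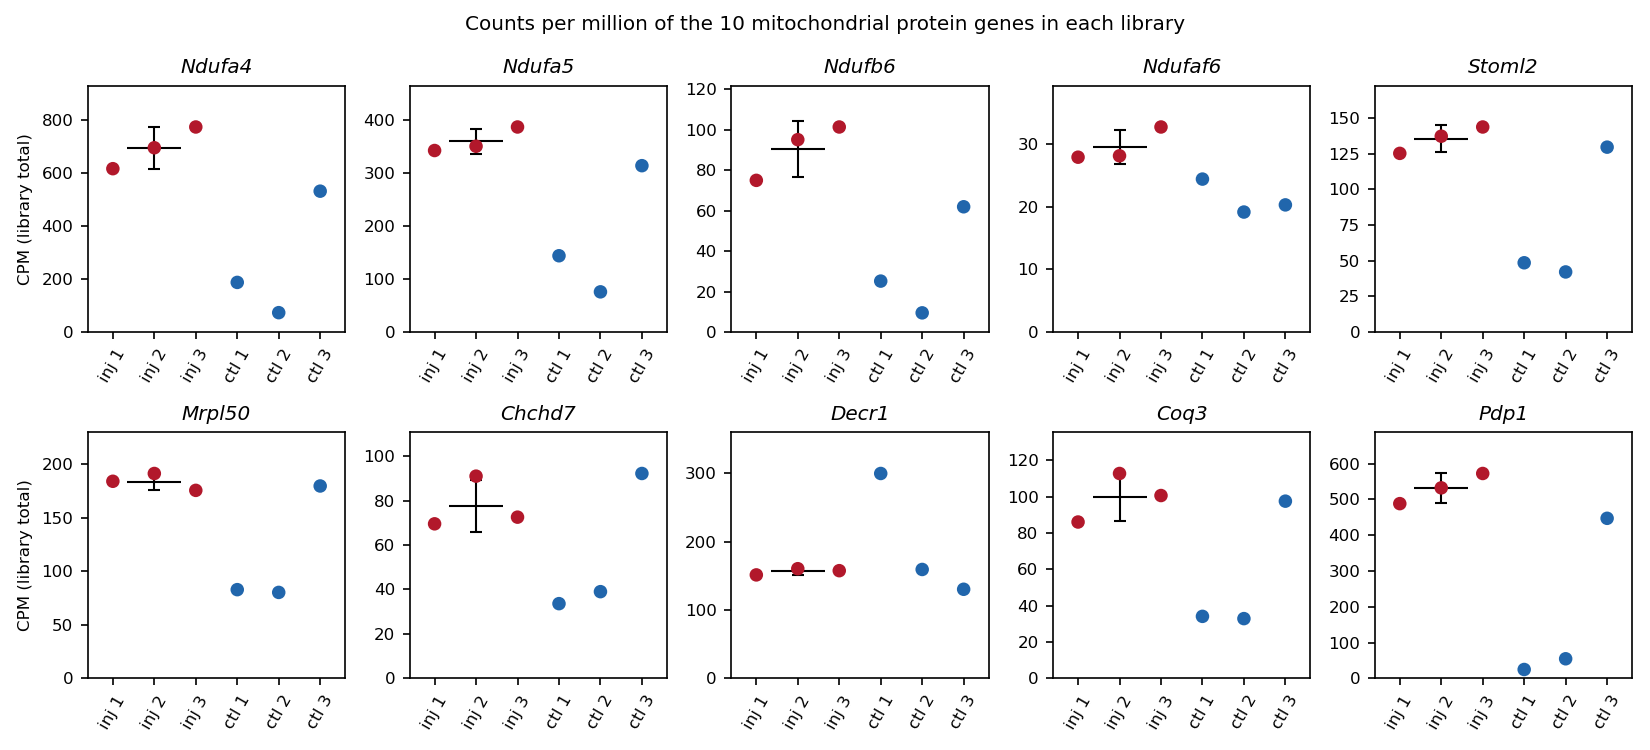
Level of each gene in CPM of the library total (y axis, linear, from 0) in injury libraries 1 to 3 (red, inj) and control libraries 1 to 3 (blue, ctl). Each point is 1 library, and the black bar is the injury mean ± SD (n = 3); no mean is drawn for the controls, whose libraries stand apart. In 8 of the 10 panels control 3 and the injury points lie above controls 1 and 2, while Ndufaf6 varies little and Decr1 is highest in control 1.

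Ndufa5 and Ndufb6 encode accessory subunits of complex I, the NADH dehydrogenase that starts the chain. Ndufa4 carries a complex I name, but its product is now known as a subunit of cytochrome c oxidase, complex IV. Ndufa4 lies on chromosome 6 at 11900291 to 11907496 (minus strand, coordinates of the files), Ndufa5 on the same chromosome at 24518665 to 24528012 (minus strand), and Ndufb6 on chromosome 4 at 40270591 to 40279421 (minus strand). Ndufb6 shares 257 exonic bases (39.0%) with the feature named Smim27, and read pairs there were not counted for either. Ndufa4 and Ndufb6 had the most similar profiles of any 2 of the 10 genes, which is why the stretches before their outermost annotated exons are shown, read on the minus strand of RefSeq's GRCm38.p6 windows. Capitals mark the only match to the motifs that were searched, described after the other sequences.
Ndufb6, chr4:40279422-40279671: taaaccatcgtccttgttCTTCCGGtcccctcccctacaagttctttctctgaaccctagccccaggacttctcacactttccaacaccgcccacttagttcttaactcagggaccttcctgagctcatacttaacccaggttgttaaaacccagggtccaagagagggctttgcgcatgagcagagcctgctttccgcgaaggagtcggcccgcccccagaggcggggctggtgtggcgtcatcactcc
Ndufa4, chr6:11907498-11907700: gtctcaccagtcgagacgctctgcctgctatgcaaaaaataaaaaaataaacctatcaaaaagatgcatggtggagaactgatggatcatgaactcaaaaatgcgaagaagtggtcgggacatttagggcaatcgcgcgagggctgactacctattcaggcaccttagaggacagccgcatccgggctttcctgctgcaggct
The match in Ndufb6 is the core letters CCGGAAG bound by GABPA, an ETS factor known for nuclear mitochondrial genes, on the reverse strand (CTTCCGG as printed), with its first base at position -232 from the start. The Ndufa4 window held none of the motifs.

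Ndufa4 had 616, 695 and 773 CPM in injury 1, 2 and 3, against 187, 72.7 and 531 CPM in control 1, 2 and 3. The injury libraries were all above the controls, with control 3 between the injury libraries and the other controls. The injury mean of 695 ± 78.7 CPM (SD, n = 3) was 3.72 times the value in control 1, 9.56 times that in control 2 and 1.31 times that in control 3. Ndufa5 had 342, 350 and 386 CPM in injury 1, 2 and 3, against 143, 75.5 and 313 CPM in control 1, 2 and 3. It kept the same order of libraries, with a smaller gap: the injury mean of 359 ± 23.6 CPM was 2.50, 4.76 and 1.15 times the values in control 1, 2 and 3. Ndufb6 had 75.0, 95.2 and 101 CPM in injury 1, 2 and 3, against 25.2, 9.43 and 61.9 CPM in control 1, 2 and 3. Its injury mean of 90.5 ± 13.8 CPM was 3.60, 9.60 and 1.46 times the values in control 1, 2 and 3, close to the ratios of Ndufa4, and control 2 held only 37 counts of it.

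Ndufaf6 encodes a factor needed to assemble complex I (chromosome 4, 11051045 to 11076205, minus strand). It had 27.9, 28.1 and 32.7 CPM in injury 1, 2 and 3, against 24.4, 19.1 and 20.3 CPM in control 1, 2 and 3. The groups did not overlap, but the step was small, and control 1 was above control 3. The injury mean of 29.6 ± 2.72 CPM (SD, n = 3) compares with 21.3 ± 2.77 CPM in control. It had 53 to 95 counts a library, and the spread among injury libraries (9.21% of the mean) was within the counting error of 11.2%.

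Stoml2, a stomatin-like protein of the inner membrane that binds cardiolipin and helps to hold respiratory complexes in membrane domains, lies on chromosome 4 at 43027690 to 43031710 (minus strand). It had 125, 137 and 144 CPM in injury 1, 2 and 3, against 48.5, 42.1 and 130 CPM in control 1, 2 and 3. Control 3 fell inside the injury range, so the groups overlapped. Chchd7, a small protein with a twin cysteine motif of the intermembrane space, lies on chromosome 4 at 3938888 to 3951046 (plus strand). It had 69.5, 91.0 and 72.5 CPM in injury 1, 2 and 3, against 33.6, 39.0 and 92.2 CPM in control 1, 2 and 3. The highest single value of Chchd7 was that of control 3, so its injury mean was 2.31 and 1.99 times the values in control 1 and 2 but 0.843 times that in control 3.

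Mrpl50 encodes a protein of the large subunit of the mitochondrial ribosome, which translates the chain subunits encoded in mitochondrial DNA (chromosome 4, 49512596 to 49521093, minus strand). It had 184, 191 and 176 CPM in injury 1, 2 and 3, against 82.9, 80.3 and 180 CPM in control 1, 2 and 3. Controls 1 and 2 were below all the other libraries, and control 3 lay inside the injury range. Coq3 is the methyltransferase that acts on the ring of coenzyme Q during its synthesis (chromosome 4, 21879673 to 21912162, plus strand). It had 86.0, 113 and 101 CPM in injury 1, 2 and 3, against 34.1, 32.9 and 97.5 CPM in control 1, 2 and 3. Like Stoml2 and Mrpl50 it showed 2 low controls and a control 3 within the injury range, and its injury mean of 99.8 ± 13.4 CPM (SD, n = 3) was 2.92, 3.03 and 1.02 times the values in control 1, 2 and 3.

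Pdp1 and Decr1 are enzymes of fuel use in the matrix. Pdp1 is the phosphatase that switches the pyruvate dehydrogenase complex on, letting pyruvate from glucose enter the citric acid cycle (chromosome 4, 11958184 to 11966452, minus strand). It had 488, 532 and 572 CPM in injury 1, 2 and 3, against 24.9, 54.8 and 447 CPM in control 1, 2 and 3. It showed the widest gap of the 10 genes to control 1: the injury mean of 531 ± 42.1 CPM (SD, n = 3) was 21.3 times the value there, 9.68 times that in control 2 and 1.19 times that in control 3. Decr1 is the dienoyl-CoA reductase that beta-oxidation needs for unsaturated fatty acids (chromosome 4, 15917240 to 15945507, minus strand). It had 151, 160 and 158 CPM in injury 1, 2 and 3, against 299.8, 159 and 130 CPM in control 1, 2 and 3. The highest Decr1 value was in control 1, and its injury libraries lay inside the control range.

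Matches to the motifs were also found before or near the starts of other genes. RefSeq windows of GRCm38.p6, from 250 bases before to 50 bases after a start, were at hand for 6 of the 10 genes (8 windows). The stretches of 30 bases around 3 of the matches are shown because they carry the letters searched for; capitals mark the match, and each is read on the strand of its gene.
Coq3, chr4:21879843-21879872: gggcggctctGCGCAAGCGCggcagagagc
Ndufa5, chr6:24527697-24527726: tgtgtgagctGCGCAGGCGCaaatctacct
Stoml2, chr4:43031471-43031500: ggactaatacgCCGGAAGtacgtcgggcgg
The Coq3 and Ndufa5 matches are to the motif of NRF1, nuclear respiratory factor, known for its sites at genes of the respiratory chain. It was searched as GCGCA and GCGC with any 1 base between them. In Coq3 the match starts at position 1 of the more downstream start, which lies inside the gene. The window of the more upstream Coq3 start held no match. In Ndufa5 the match is at -26 from the more upstream start. The Stoml2 match is CCGGAAG (GABPA) at -105. Searched on both strands, the NRF1 motif was in 4.6% of all 32851 windows and in 3 of the 8 windows, from 2 of the 6 genes. The Ndufa5 windows overlap and hold the same match. CCGGAAG was in 8.86% of all windows and in 2 of the 8, from 2 of the 6 genes. The 8 windows are rich in CpG (a C followed by a G), with 14 to 31 each beside a median of 7 over all windows. These shares were not tested. AAGATGG (YY1) was in 6.34% of all windows and AAGGTCA (ESRRA) in 4.72%, and neither was in a window of these genes. A match describes letters and is neither a site nor a cause.

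Levels between genes were compared per length, as CPM per kb of exon. Ndufa4 was highest in all injury libraries, at 446, 503 and 560.0 CPM per kb, against 135, 52.6 and 385 CPM per kb in control 1, 2 and 3. Ndufa5 followed, at 331, 339 and 374 CPM per kb in injury 1, 2 and 3, against 139, 73.1 and 303 CPM per kb in control 1, 2 and 3. So Ndufa5 was the highest of the 10 in controls 1 and 2 and Ndufa4 in the other 4 libraries, though in control 1 the 2 genes were within counting error of each other. Below them in the injury libraries came Ndufb6 (137 ± 20.9 CPM per kb, SD, n = 3, over all of its 659 exonic bases), Pdp1 (118 ± 9.34) and Mrpl50 (86.9 ± 3.73). Stoml2 (44.8 ± 3.11 CPM per kb), Decr1 (40.3 ± 1.19) and Coq3 (33.3 ± 4.46) formed the next step, and Ndufaf6 (23.9 ± 2.20) and Chchd7 (19.1 ± 2.86) the lowest. Of neighbours in this order, the injury ranges overlapped only for Ndufb6 with Pdp1, and the lowest Stoml2 value of 41.5 was next to the highest Decr1 value of 41.4, and the lowest Ndufaf6 value of 22.6 next to the highest Chchd7 value of 22.4. All 3 injury libraries gave the same order of the 10 genes, and control 3 differed from it only in exchanging Pdp1 with Ndufb6 and Chchd7 with Ndufaf6. Read pairs in the 257 bases that Ndufb6 shares were not counted, so values over all of its exonic bases understate it. Over its 402 unshared bases Ndufb6 had 187, 237 and 252 CPM per kb in injury 1, 2 and 3, against 62.6, 23.5 and 154 CPM per kb in control 1, 2 and 3. On that length it stood above Pdp1, which had 108 to 127 CPM per kb in the injury libraries and 99.2 in control 3, so that the ranges no longer overlapped and control 3 exchanged only Chchd7 with Ndufaf6. Controls 1 and 2 did not keep that order: Pdp1 was in place 10 in control 1 and place 8 in control 2, and Decr1 in place 3 in both.

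**Figure D2:**
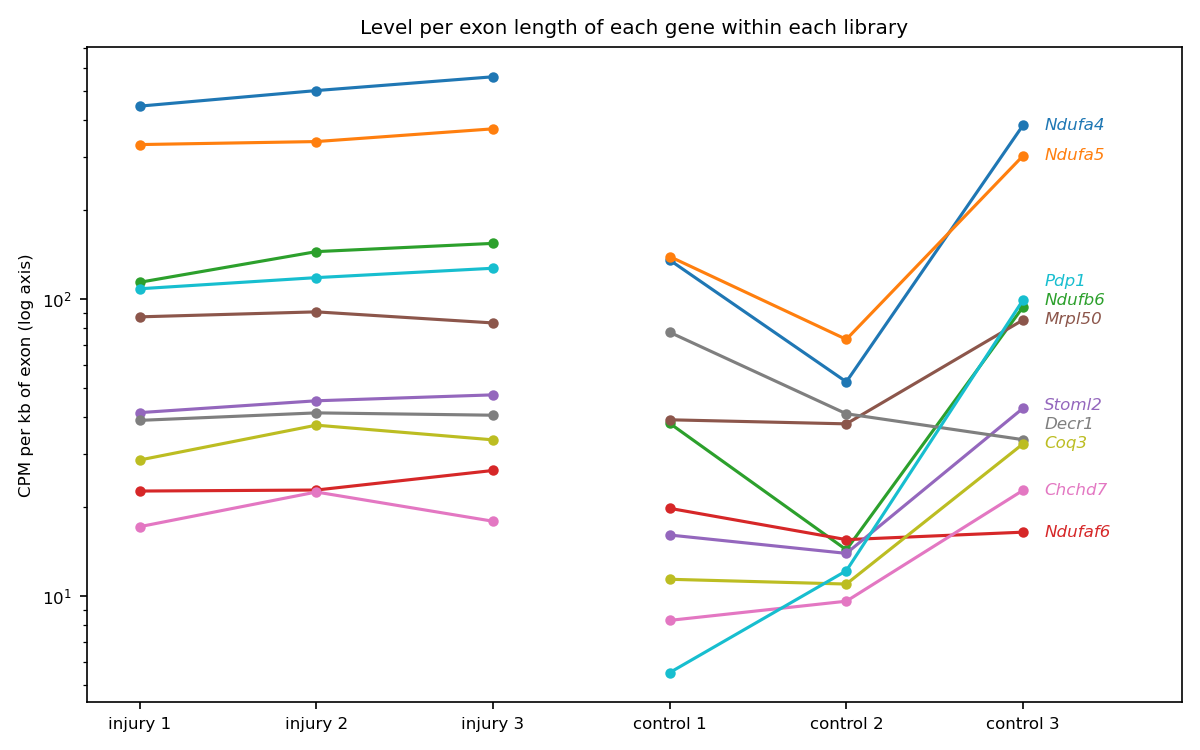
Level of each gene in CPM per kb of exon (y axis, log scale, all exonic bases) in injury libraries 1 to 3 and control libraries 1 to 3; each point is 1 library and a line only joins the points of 1 gene within a group. The order of the lines is the same in the 3 injury libraries, while in controls 1 and 2 Pdp1 drops to places 10 and 8 and Decr1 stands in place 3.

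With all 6 libraries, none of the 10 genes passed the test of injury against control. edgeR's quasi-likelihood test, fitted on 12646 features, called 0 of the 10 at a Benjamini-Hochberg adjusted p of 0.05, with 0 of them under an unadjusted p of 0.05. It called 0 of all features (0%), of which 3245 had an unadjusted p under 0.05, so the count for the 10 genes equals the background. limma-voom also called 0 of the 10 and 0 of the 12646 features. It had 5 of the 10 under an unadjusted p of 0.05, beside 3887 features and 177 of the 461 name-stable genes. DESeq2 called 0 of the 10, with 1 of them under an unadjusted p of 0.05, beside 3441 features and 82 of the 461 name-stable genes. Beside that, DESeq2 called 1503 of the 12646 features (11.9%) in either direction, and only 18 of the 12646 (0.142%) higher in injury. limma-voom with sample quality weights, which gives unlike libraries less weight, called 8 of the 10 higher, beside 27.1% of all features and 49.7% of name-stable genes called higher and 55.7% of all features in either direction. The log2 fold change was positive for 9 of the 10 and the median was 1.02, beside 0.65 over the 461 tested name-stable genes, of which 72.2% were positive. Pdp1 had the highest value, 1.76 (SE 1.05, adjusted p = 0.297 by edgeR), and Ndufb6 the smallest adjusted p, 0.212, at 1.60 (SE 0.71). Decr1 was negative at -0.25 (SE 0.49, adjusted p = 0.732 by edgeR), and its sign changed with the settings. Control 3 and every injury library lay above controls 1 and 2 in CPM for 8 of the 10, beside 34.1% of all tested features and 56.8% of name-stable ones. The injury libraries were above all controls in CPM for 5 of the 10 genes (Ndufa4, Ndufa5, Ndufb6, Ndufaf6 and Pdp1), beside 13.7% of all tested features and 24.5% of name-stable ones. With TMM scaling, which evens out the make-up of libraries, that number was 7 of the 10, adding Stoml2 and Mrpl50, beside 21.7% of features and 41% of name-stable genes.

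Without control 3, 8 of the 10 genes were higher in injury and 0 lower. Background was high too: in the same fit 30.2% of 15320 features were called higher and 66.8% in either direction, and of the 518 name-stable genes 53.5% were higher. The median log2 fold change of the 10 was 2.03, beside 1.05 over those name-stable genes. Pdp1 rose by 4.30 (SE 0.33, adjusted p = 0.000206, edgeR), Ndufa4 by 2.77 (SE 0.59, adjusted p = 0.00635) and Ndufb6 by 2.75 (SE 0.58, adjusted p = 0.0063). Ndufa5, Stoml2, Mrpl50, Chchd7 and Coq3 rose by 1.58 to 2.09. Ndufaf6 at 0.88 had an adjusted p of 0.0625, and Decr1 at -0.17 one of 0.728, both by edgeR. Direction and call of those 8 held under RLE, upper quartile and total count scaling, the FPKM denominator, DESeq2 and limma-voom. In those fits 8 or 9 of the 10 were called, the further 1 being Ndufaf6. Beside them, 21.4% to 31.6% of all features and 40% to 55.8% of name-stable genes were called higher. With total counts only, the calls over all features became 3279 higher and 6555 lower, against 4621 higher and 5610 lower with TMM.

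Against control 3 alone, 0 of the 10 genes were called, beside 6.78% of 13857 features and 2.07% of 482 name-stable genes. This fit, like the others with 1 control, takes the lone control to vary like the injury libraries. The log2 fold changes ran from -0.12 for Chchd7 to 0.67 for Ndufb6 (SE 0.21, adjusted p = 0.0515, edgeR), with 9 of the 10 positive and 5 under an unadjusted p of 0.05. Their median was 0.35, beside 0.18 over the name-stable genes, of which 74.5% were positive. Ndufa4 was at 0.51 (SE 0.18, adjusted p = 0.082, edgeR) and Pdp1 at 0.37 (SE 0.17, adjusted p = 0.177, edgeR).

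Against control 1 alone, 8 of the 10 were higher and 1, Decr1, lower, beside 38.6% of 15912 features called higher and 40.5% lower, and 62.1% higher and 23.6% lower of 535 name-stable genes. Pdp1 stood 4.61 higher (SE 0.24) and Decr1 fell by 0.74 (SE 0.16, adjusted p = 8.46e-05, edgeR). Against control 2 alone all 10 were higher, beside 35.2% of 18255 features and 60.3% of 575 name-stable genes, of which 25.9% were lower. Ndufa4 at 4.22 (SE 0.22), Pdp1 at 4.24 (SE 0.22) and Ndufb6 at 4.22 (SE 0.27) were highest there. Decr1 was called higher against control 2 at 0.94 (SE 0.18, adjusted p = 1.18e-05, edgeR), although its CPM of the library total were 157 on average in injury and 159 in control 2. In that fit the TMM factor, by which a library size is multiplied, was 1.66 for control 2 and 0.819 to 0.881 for the injury libraries. With total counts only, Decr1 stood at -0.04 (SE 0.15, adjusted p = 0.834, edgeR) against control 2 alone and was not called, and 9 of the 10 were higher, beside 44.9% of name-stable genes. Against control 1 alone, total counts only gave the same 8 higher and Decr1 lower, beside 57.6% of name-stable genes higher. These comparisons share the 3 injury libraries and are not independent of each other. On total counts, most features went the other way from the 10 genes. The median log2 fold change over all features was -1.45 against control 2 alone, with 30.6% positive, and -0.28 against control 1 alone, with 45.9% positive. The medians of the 10 genes were 1.63 and 1.40 there, beside 0.24 and 1.01 over the name-stable genes.

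**Figure D3:**
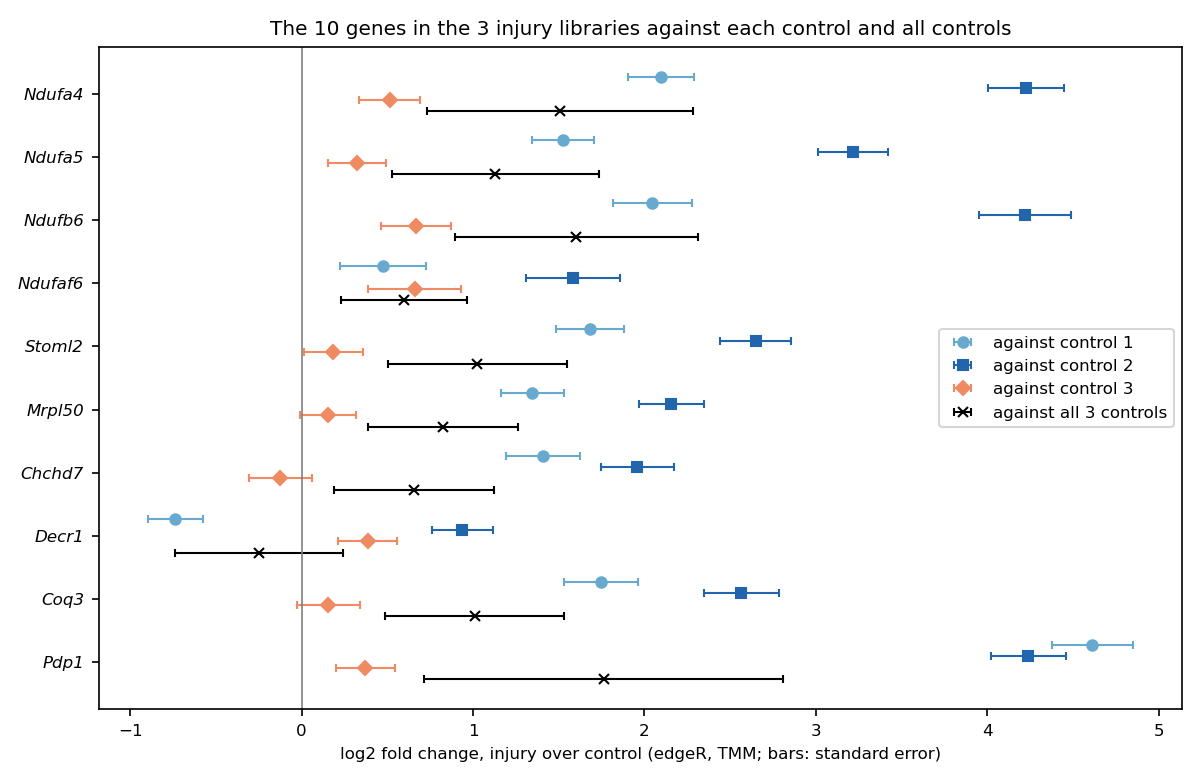
Log2 fold change of each gene, injury over control, by edgeR with TMM scaling (x axis; bars are the standard error) against control 1, 2 and 3 alone and against all 3 controls. Fold changes against control 3 lie between -0.12 and 0.67, while those against control 1 and 2 reach 4.61 and 4.24, and those against all 3 controls have wider bars.

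Ratios of 2 genes within a library do not depend on how libraries are scaled. The pairs below were chosen after the CPM values were seen, and intervals are exact 95% intervals for counting error. Ndufa4 over Ndufb6 per length was 3.92, 3.48 and 3.64 in injury 1, 2 and 3, against 3.54, 3.68 and 4.09 in control 1, 2 and 3. All 6 intervals overlapped, from the lowest bound of 2.60 to the highest of 5.33, so no difference between libraries in this ratio was detectable at this depth while both genes differed several-fold in level between libraries. Over the unshared bases of Ndufb6 the ratio was lower by the same factor in every library, at 2.39, 2.13 and 2.22 in injury 1, 2 and 3, against 2.16, 2.24 and 2.50 in control 1, 2 and 3. Ndufa4 over Ndufa5 per length was 1.35, 1.48 and 1.50 in injury 1, 2 and 3, against 0.973, 0.720 and 1.27 in control 1, 2 and 3. The upper bounds of 1.09 in control 1 and 0.849 in control 2 lay below the lowest injury bound of 1.25, while the interval of control 3, 1.16 to 1.38, overlapped those of the injury libraries. These bounds cover counting error only, not the spread between samples.

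Decr1 over Ndufa5 per length was 0.118, 0.122 and 0.109 in injury 1, 2 and 3, against 0.556, 0.562 and 0.111 in control 1, 2 and 3. The ratio set a fatty acid enzyme against a respiratory chain subunit, and it put controls 1 and 2 together, far above the other 4 libraries, whose intervals overlap. Pdk4, the kinase that switches pyruvate dehydrogenase off, opposes Pdp1. Its level was 85.0, 101 and 93.9 CPM in injury 1, 2 and 3, against 10104, 183 and 92.2 CPM in control 1, 2 and 3. Pdp1 over Pdk4 per length was 4.47, 4.10 and 4.75 in injury 1, 2 and 3, against 0.00192, 0.233 and 3.78 in control 1, 2 and 3. Per length, phosphatase reads outnumbered kinase reads in all injury libraries and control 3, and the reverse held in controls 1 and 2.

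**Figure D4:**
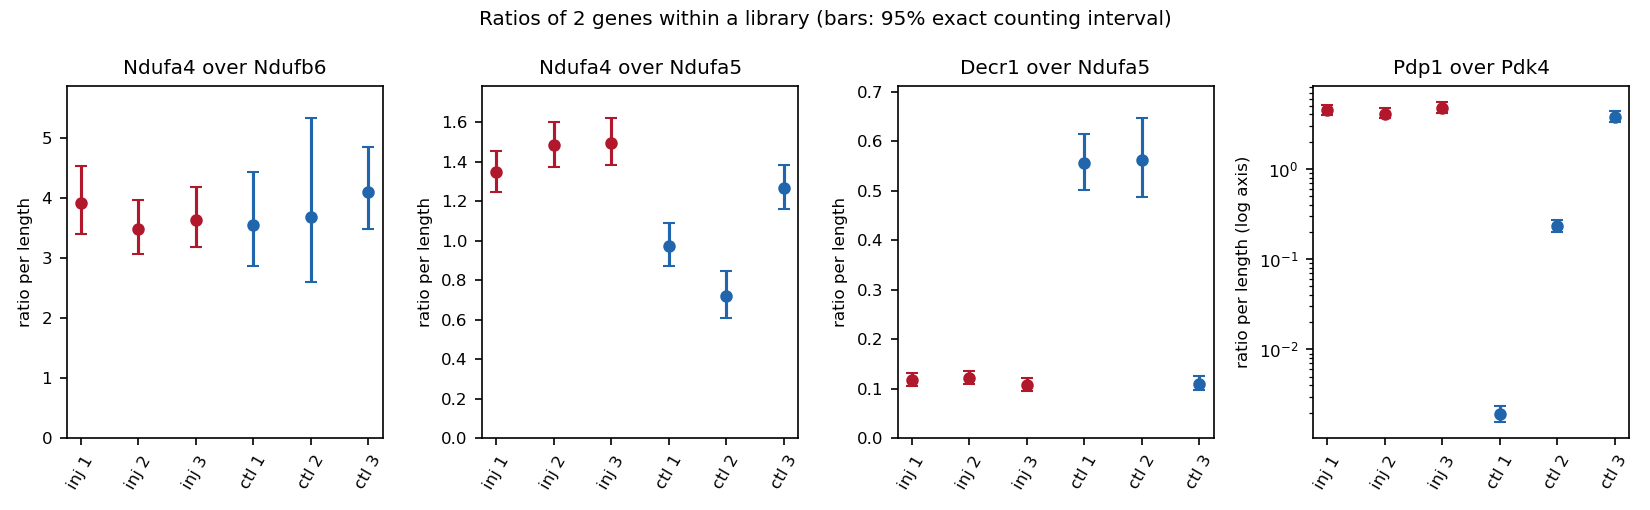
Ratio of 2 genes per exon length (y axis; linear from 0 in the first 3 panels, log scale for Pdp1 over Pdk4) in injury libraries 1 to 3 (red) and control libraries 1 to 3 (blue), with exact 95% counting intervals as bars. Ndufa4 over Ndufb6, drawn over all exonic bases of both, overlaps in all 6 libraries, and Decr1 over Ndufa5 is 0.556 and 0.562 in controls 1 and 2 against 0.109 to 0.122 elsewhere.

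Among themselves the genes fell into degrees of likeness. By the Euclidean distance between log2 CPM profiles over the 6 libraries, each centred on its mean (prior count 2), the closest pairs were Ndufa4 with Ndufb6 at 0.22 and Stoml2 with Coq3 at 0.23, and the farthest was Decr1 with Pdp1 at 5.17. Of 451 other tested name-stable genes, the nearest were Tmem229a for Ndufa4 (0.35) and for Ndufb6 (0.37), Hsdl2 for Ndufa5 (0.21), Nr4a3 for Ndufaf6 (0.20), Klhdc10 for Stoml2 (0.16) and Sem1 for Mrpl50 (0.20). For the rest they were Dcun1d5 for Chchd7 (0.22), Usp45 for Coq3 (0.18), Crem for Decr1 (0.42) and Tstd3 for Pdp1 (0.47). These distances describe 6 libraries that share 2 unlike controls.

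Other mitochondrial protein genes were read in the same fits. Of a further list of 18 names, 17 were in the files and 16 were tested as name-stable; Fam92a is an older symbol of Cibar1, and Nipsnap3a had 0 counts in all libraries. With all 6 libraries 0 of the 16 were called, with 3 under an unadjusted p of 0.05. Without control 3, 9 were higher and 2 lower, with a median log2 fold change of 1.12, beside 53.5% higher and 19.1% lower among all name-stable genes, so the shares of the list lay near that background. Against control 3 alone 0 of the 16 were called, against control 1 alone 10 were higher and 4 lower, and against control 2 alone 13 were higher and 1 lower, beside the name-stable backgrounds of those fits given above. Against control 2 alone the median log2 fold change of the 16 was 1.40 with TMM, beside 1.21 over the name-stable genes. With total counts only it was 0.42, beside 0.24 over the name-stable genes. Ndufaf4, another assembly factor of complex I, had 144, 185 and 168 CPM in injury 1, 2 and 3, against 46.2, 52.3 and 138 CPM in control 1, 2 and 3. Tomm5, a small subunit of the outer membrane import pore, had 77.1, 79.4 and 106 CPM in injury 1, 2 and 3, against 13.3, 13.8 and 78.0 CPM in control 1, 2 and 3. Both had control 3 and the injury libraries above controls 1 and 2, and without control 3 both were called, at 2.23 (SE 0.27) for Ndufaf4 and 3.16 (SE 0.33) for Tomm5.

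Pdk4 and Aass fell without control 3. Aass, the enzyme that begins lysine breakdown, had 18.2, 23.9 and 17.6 CPM in injury 1, 2 and 3, against 1974, 103 and 20.6 CPM in control 1, 2 and 3. Its log2 fold change without control 3 was -5.48 (SE 1.19) and that of Pdk4 was -5.57 (SE 1.44, adjusted p = 0.0133, edgeR). Against control 1 alone Pdk4 was at -6.56 and called. Against control 2 alone its value turned on the scaling: it was -0.0087 and not called with TMM, but -0.98 (SE 0.15, adjusted p = 7.08e-06, edgeR) with total counts only, and its mean of 93.3 CPM in injury was 0.509 times the 183 CPM in control 2. Slc25a51, the carrier that brings NAD into mitochondria, had 442, 432 and 445 CPM in injury 1, 2 and 3, against 896, 323 and 401 CPM in control 1, 2 and 3. Its injury mean was 0.490, 1.36 and 1.09 times the values in control 1, 2 and 3. With all 6 libraries it was not called. For these genes too control 3 lay near the injury libraries, and control 1 far from control 2.

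**Figure D5:**
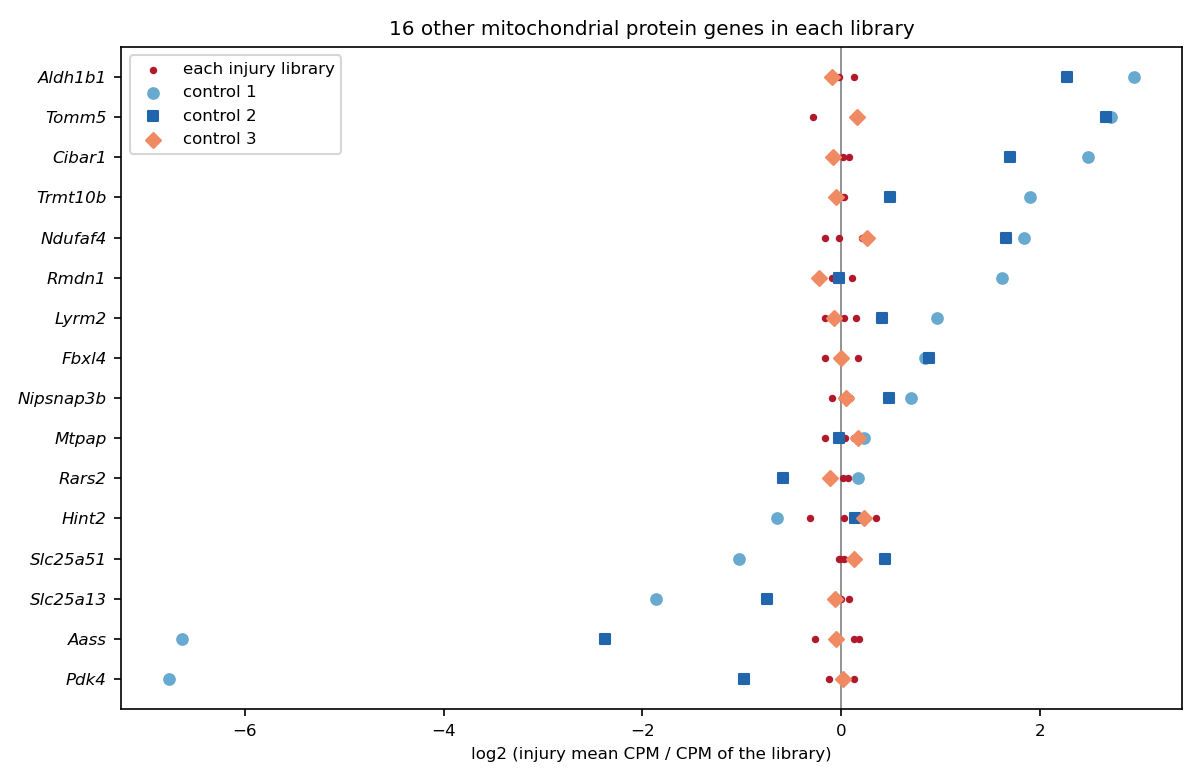
Log2 of the injury mean CPM over the CPM of each library (x axis) for 16 other mitochondrial protein genes (y axis), with each injury library as a small red dot and controls 1, 2 and 3 as separate markers. A point right of 0 means a level below the injury mean; control 3 stays near the injury dots for all genes, while controls 1 and 2 spread to both sides, farthest left for Aass and Pdk4.

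Other genes of the pathways were read by the gene that overlies a feature, and most of them could not be tested even so. Of 222 listed genes other than the 10, from 8 lists of complex I subunits, assembly factors, complexes II to V, mitochondrial ribosome, coenzyme Q synthesis, beta-oxidation, pyruvate dehydrogenase and membrane scaffolds, 41 were tested with all 6 libraries. edgeR called 0 of those 41, with 4 under an unadjusted p of 0.05, beside 0% of 5128 overlying genes, of which 1000 had an unadjusted p under 0.05. Without control 3, 43 were tested, and 16 were higher and 7 lower, beside 28.1% higher and 31.5% lower of 5646. Their median log2 fold change was 1.02, beside -0.08 over all of these genes. Against control 3 alone 0 of 41 were called, with 6 under an unadjusted p of 0.05, beside 0.708% of 5367. Features read this way may lie partly off exons, so these values are not the full level of a gene.

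By list, without control 3, 1 of 7 other complex I subunit genes, 2 of 3 other assembly factors and 2 of 7 genes of complexes II to V were higher and none of these was lower. The mitochondrial ribosome had 5 higher and 1 lower of 8, the pyruvate dehydrogenase list 2 higher and 3 lower of 6, and the scaffold list 3 higher and 1 lower of 7. Coenzyme Q synthesis had 1 higher and 1 lower of 2. Beta-oxidation had 0 higher and 1 lower of 3. In that list Acadl, a long-chain acyl-CoA dehydrogenase, had 80.9, 92.4 and 88.4 CPM in injury 1, 2 and 3, against 348, 135 and 73.4 CPM in control 1, 2 and 3, highest in control 1 as Decr1 was. Ndufa9, a complex I subunit, had 209, 235 and 234 CPM in injury 1, 2 and 3, against 58.0, 52.3 and 218 CPM in control 1, 2 and 3, and Cox6c, of complex IV, had 406, 463 and 534 CPM in injury against 141, 85.9 and 429 CPM for control. These 3 were named after their values were seen, and other genes of the lists were unlike them. Ndufs3, of complex I, had 14.1, 20.7 and 19.7 CPM in injury 1, 2 and 3, against 14.6, 26.3 and 16.1 CPM in control 1, 2 and 3. Eci1, of beta-oxidation, had 45.4, 62.2 and 59.9 CPM in injury 1, 2 and 3, against 56.2, 42.8 and 34.8 CPM in control 1, 2 and 3. Both were also named with their values known.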

How the data were processed

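RNA was measured in 6 libraries, 3 injury and 3 control, grouped by the sample group of the labels. Per the labels' protocols, RNA was taken with Trizol and made into TruSeq libraries. The submitters' processing notes name Bowtie 0.12.2, mm8 as well as mm9. The deposited counts are from featureCounts 2.0.1, per the file headers: pairs with both ends mapped to 1 chromosome, added up over the exons that share a gene name, unstranded, with multi-mappers and pairs in overlaps dropped. A gene and its antisense partner therefore cannot be separated. The aligner behind the counts, their build and their annotation are not given in the sources used here. The deposited FPKM columns of the series table served only to derive a denominator per library, of which the counts were 25.5% to 41.9%; it is an alternative library size. Counts per library limit low genes, and intervals cover counting error only.

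The files' exons were set against GENCODE M21, without converting coordinates. A feature with at least 90% of its exonic bases on its own gene is name-stable; an overlying gene needed 100 shared bases, at least 90% of them on 1 gene. Every pair of libraries differed by more than sampling noise (chi-square at least 3.10 a feature). The test was edgeR 4.0.16 (R 4.3.3) with TMM, default filterByExpr and the quasi-likelihood F test over all features, Benjamini-Hochberg adjusted, called at 0.05; standard errors come from the F statistic. limma 3.58.1, DESeq2 1.42.0, other scalings, filters, the replicate number as a block and leaving out libraries were alternatives. The pipeline was also run on simulated counts with known folds. Their controls did not differ in make-up, so that run does not cover the unlike controls of these data. The 10 genes, the lists and the tests were chosen with earlier results of these data known. Named beside the 10 were, by rule, Ndufaf4, Pdk4 and Tomm5, up to 3 others of the further list by mean CPM, and the nearest gene by profile. CPM are counts over the library total, times 1000000.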

Additional observations from a re-analysis of the deposited data

How the results depend on the processing

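The call of the 10 genes depends on which controls enter. With all 6 libraries, 0 were called under RLE, upper quartile or total count scaling, both other filters, DESeq2, limma-voom, removal of the 10 most abundant features, the denominator of the FPKM columns and the reading by overlying gene. limma-voom with sample quality weights called 8 of the 10, and 7042 of all features; DESeq2 called 1503 features. Leaving out each library in turn gave 0 to 8 of the 10 and 0 to 10231 of all features, the upper ends without control 3. Without controls 1 and 2, 939 features were called. Against control 2 alone, 10 of the genes and 14333 features were called, and against control 1 alone, 9 of the genes and 12593 features; with total counts only these were 9 of the genes and 15112 features against control 2 alone, and 9 and 12526 against control 1 alone. The fits against control 1 or 2 alone, the FPKM denominator, the reading by overlying gene and the other settings tried without control 3 were added after seeing the data.

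Decr1 changed sign: its log2 fold change was 0.0095 with no filter beyond 1 count, 0.060 with the FPKM denominator, 0.38 without controls 1 and 2, 0.94 without controls 1 and 3, 0.40 without control 1, 0.02 without injury 1, and 0.0074 without control 3 under limma-voom. Leaving out each library in turn, it ran from -0.53 to 0.40. Chchd7 was at -0.12 without controls 1 and 2. The cause was not tested. Of the values of single genes, 110 kept direction and call, 8 gained a call and 2 changed sign in fits of all 6 libraries, and 61 kept both, 44 gained a call and 5 changed sign in fits that left out libraries. Not counted there were the other scalings and methods tried without control 3, nor the reading by overlying gene with libraries left out. Total counts only moved the median log2 fold change of all features to -0.30, against -0.04 with TMM.

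With the replicate number as a block (replicate block), 0 of the 10 and 0 of all features were called, with 2655 features under an unadjusted p of 0.05. Deviations of same-numbered libraries correlated at 0.065, -0.138 and 0.0589, and not every library correlated best with its own number, so the numbers were not taken as pairs.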
